A study of Mus musculus with 8 samples.

Results

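The set described here is Trp63 and 9 further genes of airway basal cells, measured at embryonic day 14.5 in lungs taken whole from mouse embryos. They are Trp63, Dapl1, Trim29, Fat2, Bnc1, Dsg3, Dsc3, Ngfr, Aqp3 and Snai2, and keratins were left out of the set. Members were taken by gene symbol, with the probe set of highest mean over the 8 arrays standing for each gene. All 10 were found, with 1 probe set each, among the 22180 genes measured, and none was lost to a filter. Mutants, of which there were 4, had the genotype Shh-cre:Ezh2-flox/flox, in which Cre made under control of Shh is meant to delete Ezh2 in the lung epithelium. Controls, also 4, were titled Shh-cre control, with no floxed Ezh2 named in their titles, so by these titles all 8 animals carried the Cre driver. All were of mixed C57BL/6 x 129S6 background. Mutants came from litters 3 and 4 and controls from litters 1 and 2, with 2 embryos per litter, so no litter held both genotypes. Values are log2 expression on 1 array per embryo, and each difference below is a log2 value of mutants minus controls.

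Basal cells lie on the basement membrane of the trachea and large airways and renew the airway epithelium. Their regulator is p63, a transcription factor of the p53 family encoded by Trp63, which is also needed for the basal layer of skin and oesophagus. Basal cells are known for a typical set of keratins, for strong anchorage by desmosomes and hemidesmosomes, and for surface proteins such as the neurotrophin receptor NGFR. Ezh2 encodes the methyltransferase of the Polycomb complex PRC2, which silences developmental genes. The question here was which genes of the basal program were higher in mutants and which were not.

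Of the 10 genes, 4 rose in mutant lungs, 0 fell and 6 did not pass the test. Dapl1 rose most, 2.43-fold, followed by Trp63 at 1.63-fold, and Fat2 and Trim29 at 1.39-fold each. Bnc1, Dsg3, Dsc3, Ngfr and Snai2 had log2 differences between −0.01 and 0.07, and Aqp3 lay between these sets at 0.27. By limma with Benjamini-Hochberg adjustment, 0.604% of all genes passed in the higher direction and 0.248% in the lower one, beside 40% of these 10 in the higher direction. None of the 10 was lower at an unadjusted p under 0.05 either, which 4.26% of all genes were. The median log2 difference of the 10 was 0.17, and that of all genes was 0.01. In 5 of the 10 all mutants lay above all controls, which held for 4.48% of all genes. The set was drawn up with earlier results of these arrays known, so these shares describe it and are no independent evidence.

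**Figure D1:**
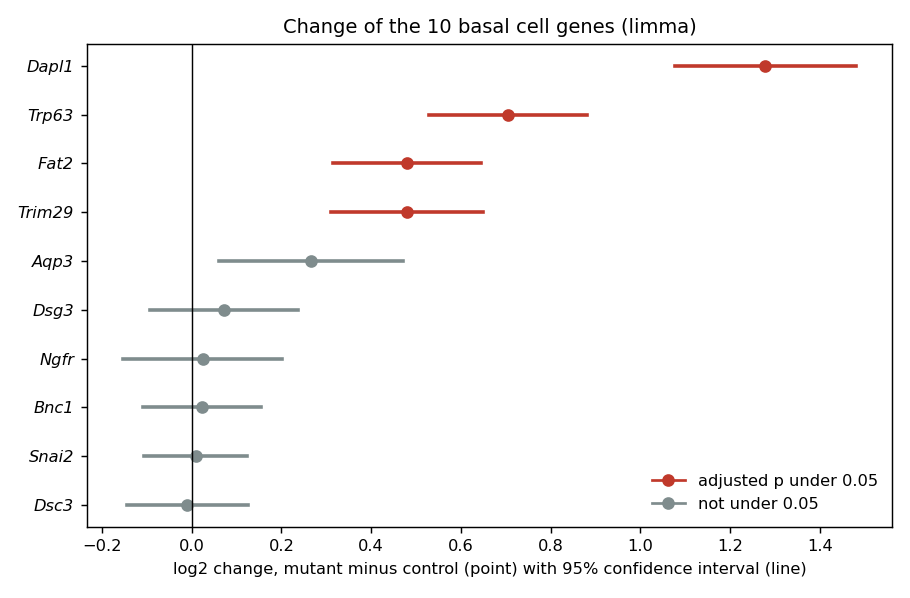
Log2 change of each gene, mutant minus control, with its 95% confidence interval from limma (4 mutant and 4 control embryos). Red marks an adjusted p under 0.05. The intervals of Dapl1, Trp63, Fat2 and Trim29 lie well above 0, that of Aqp3 starts just above 0, and those of the other 5 genes include 0.

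Array medians ran from 7.05 to 7.12 and no 2 arrays were identical. Ezh2 itself averaged 11.78 ± 0.02 in mutants and 11.87 ± 0.05 in controls (SD, n = 4 each), a log2 difference of −0.09 that did not pass (adjusted p = 0.652 by limma). Whether cells without Cre activity add to this signal was not tested, and where its probes lie relative to the floxed exons is not known here. Mutant 3 and controls 1 and 2 had Xist values of 6.37 to 6.74 and the other embryos 12.62 to 13, so the sexes were not balanced over the genotypes. Whole lung was measured, so more cells of a type and more RNA per cell cannot be told apart in any of these values.

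The regulator Trp63 had log2 values of 7.28, 7.10, 7.25 and 7.35 in mutants 1 to 4, against 6.68, 6.56, 6.50 and 6.41 in controls 1 to 4. The groups did not overlap, and 0.42 log2 units separated the lowest mutant from the highest control. The mean was 7.24 ± 0.11 in mutants and 6.54 ± 0.11 in controls (SD, n = 4 each). The log2 difference was 0.71 ± 0.08 (SE) with a 95% confidence interval of 0.53 to 0.88 and an adjusted p of 0.00148 (limma). A two-sided exact permutation test gave p = 0.0286, the smallest that 4 against 4 can give. Litters of 1 genotype differed less than the genotypes did, since mutant litter 4 exceeded mutant litter 3 by 0.11 and control litter 2 lay 0.16 below control litter 1. Trp63 encodes long and short isoforms from separate promoters, and which of them its probe set reads is not known here. Its paralogue Trp73 had a log2 difference of 0.0045 that did not pass, and Trp53 was not analysed here.

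**Figure D2:**
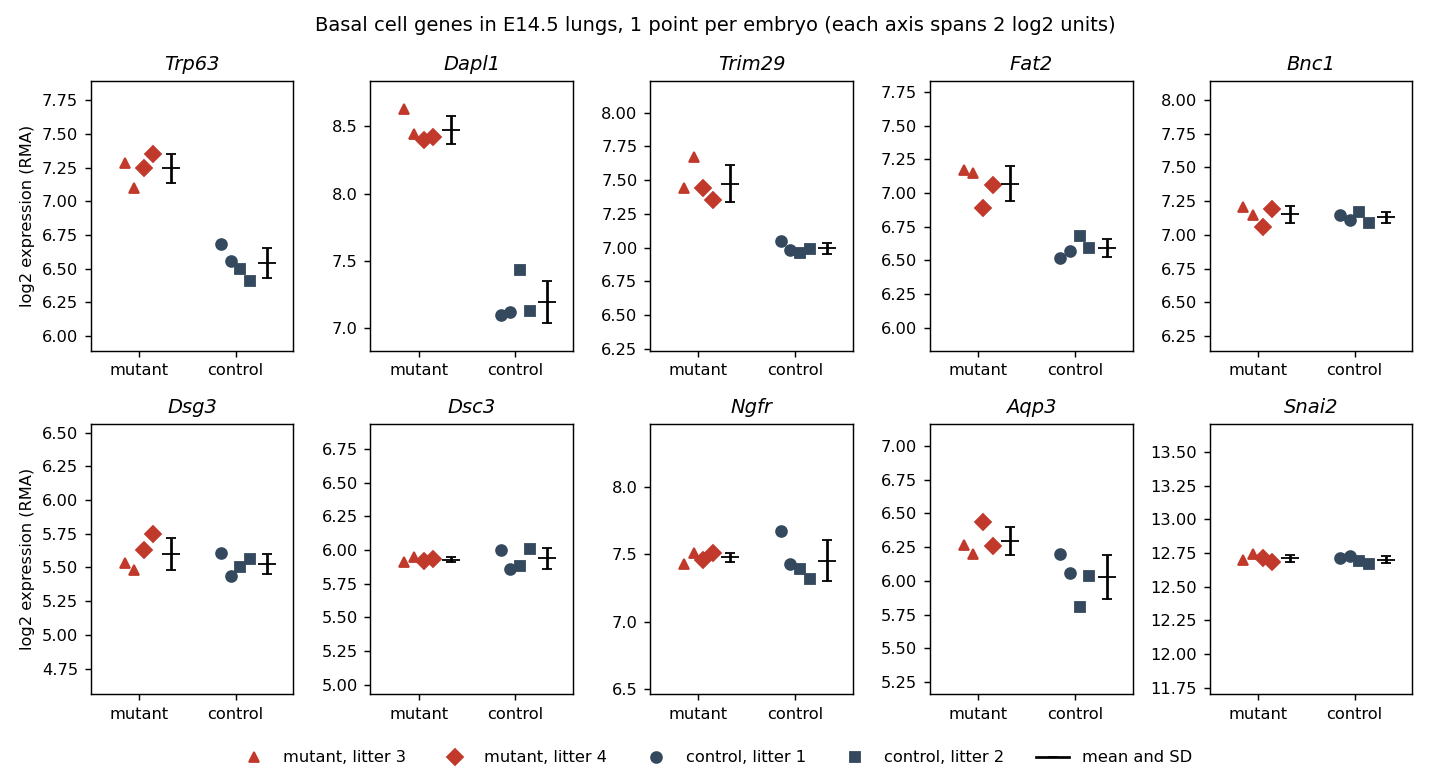
Log2 expression of the 10 genes, 1 point per embryo, with mutants left of controls. Marker shapes give the litter, and bars give mean and SD of 4 embryos. Every axis spans 2 log2 units, so gaps compare directly between panels. Trp63, Dapl1, Trim29 and Fat2 show separate groups, Aqp3 groups that nearly touch, and the other 5 genes overlapping groups.

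Snai2 and Bnc1 are transcription factors that also mark basal cells. Snai2, a zinc finger repressor that keeps progenitors undifferentiated and is strongly made in mesenchyme and neural crest, had 12.70, 12.74, 12.71 and 12.68 in mutants, against 12.71, 12.73, 12.69 and 12.67 in controls. The groups overlapped almost fully. Its log2 difference was 0.01 ± 0.05 (SE), with a 95% confidence interval of −0.11 to 0.12 (adjusted p = 0.977 by limma). In whole lung, a change of Snai2 confined to epithelial cells could be hidden by signal from other cells, which was not tested. Bnc1, basonuclin of dividing basal keratinocytes, had 7.21, 7.15, 7.06 and 7.19 in mutants, against 7.15, 7.11, 7.17 and 7.09 in controls. Mutants held both its highest and its lowest value. The log2 difference of Bnc1 was 0.02 ± 0.06 (SE), with an interval of −0.11 to 0.15 (adjusted p = 0.939 by limma).

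Dapl1 encodes a small protein first described in early differentiating stratified epithelium. Its log2 values were 8.63, 8.44, 8.40 and 8.42 in mutants, against 7.10, 7.12, 7.43 and 7.13 in controls. The lowest mutant lay 0.98 above the highest control, which was control 3. The log2 difference was 1.28 ± 0.09 (SE), with a 95% confidence interval of 1.08 to 1.48 and an adjusted p of 4.48e-05 by limma. By size of increase Dapl1 stood at place 12 and Trp63 at place 50 among the 22180 genes.

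Trim29, a tripartite motif protein that in human cells binds p53, had 7.44, 7.67, 7.44 and 7.35 in mutants, against 7.05, 6.98, 6.96 and 6.99 in controls. Controls lay within 0.10 of one another, and every mutant was above them by at least 0.29. Its log2 difference was 0.48 ± 0.08 (SE), interval 0.31 to 0.65, with an adjusted p of 0.0132 by limma. Fat2, a giant atypical cadherin of stratified epithelia, had 7.17, 7.15, 6.89 and 7.06 in mutants, against 6.52, 6.57, 6.68 and 6.59 in controls. Its lowest mutant, mutant 3, was 0.22 above its highest control, control 3. The log2 difference of Fat2 was also 0.48 ± 0.08 (SE), interval 0.31 to 0.65, with an adjusted p of 0.0118 by limma. Neither call held throughout: without control 4 the adjusted p by limma was 0.0673 for Trim29 and 0.0609 for Fat2, and without mutant 4 it was 0.0568 for Fat2. With littermates averaged it was 0.0722 for Trim29 and 0.0883 for Fat2, while the log2 differences kept the same size.

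**Figure D3:**
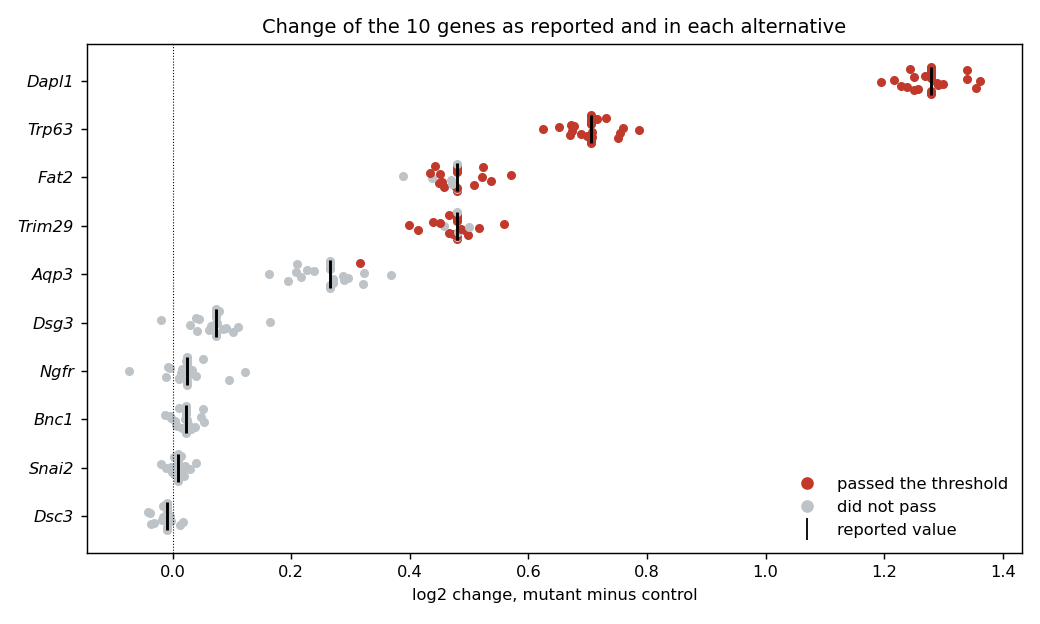
Log2 change of each gene as reported (black bar) and under each alternative (1 point each), mutant minus control. Red points passed their threshold. Dapl1 and Trp63 are red throughout, Trim29 and Fat2 in most alternatives, Aqp3 in 1, and the other 5 genes in none.

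The desmosomal cadherins Dsg3 and Dsc3, adhesion proteins of basal layers, both map to chromosome 18 in RefSeq (assembly GRCm38.p6). Dsg3 had 5.53, 5.48, 5.63 and 5.75 in mutants, against 5.61, 5.44, 5.50 and 5.56 in controls. Both mutants of litter 4 were above all controls and both of litter 3 were not. The log2 difference of Dsg3 was 0.07 ± 0.07 (SE), with an interval of −0.09 to 0.24 (adjusted p = 0.817 by limma). Dsc3 had 5.91, 5.95, 5.92 and 5.93 in mutants, against 6.00, 5.86, 5.88 and 6.01 in controls, so that all mutants lay inside the control range. Its log2 difference was −0.01 ± 0.06 (SE), with an interval of −0.14 to 0.12 (adjusted p = 0.979 by limma). The mean levels of Dsg3 and Dsc3, 5.56 and 5.93, were below the array medians of 7.05 to 7.12. RMA shrinks changes at such levels and there are no detection calls, so a rise of either gene could have been missed.

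Ngfr, the low-affinity neurotrophin receptor by which basal cells are often sorted and which neural crest cells also carry, had 7.43, 7.51, 7.46 and 7.51 in mutants, against 7.67, 7.43, 7.39 and 7.32 in controls. Control 1 was the highest of all 8 embryos. The log2 difference of Ngfr was 0.02 ± 0.08 (SE), with an interval of −0.15 to 0.20 (adjusted p = 0.956 by limma). Control litter 2 minus control litter 1 was −0.20, larger in size than the difference between genotypes.

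Aqp3, a water and glycerol channel of basal cell membranes, had 6.27, 6.20, 6.44 and 6.26 in mutants, against 6.20, 6.06, 5.81 and 6.04 in controls. All mutants exceeded all controls, but by only 0.002 at the closest pair, mutant 2 and control 1. The log2 difference was 0.27 ± 0.09 (SE), with an interval of 0.06 to 0.47. It did not pass over all genes (adjusted p = 0.351 by limma), and the exact permutation p was 0.0286, the smallest possible. Control litter 2 lay 0.21 below control litter 1. The embryos with low Xist, mutant 3 and controls 1 and 2, had the highest Aqp3 values of their genotypes. With the Xist level as a covariate the log2 difference was 0.32 and the adjusted p 0.0281 by limma, the 1 alternative of 26 in which Aqp3 passed.

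The unequal behaviour of the genes was also compared within each embryo, by taking the Trp63 value minus that of each other gene. This difference was larger in mutants than in controls by 0.68 for Bnc1, 0.63 for Dsg3, 0.72 for Dsc3, 0.68 for Ngfr, 0.44 for Aqp3 and 0.70 for Snai2. In these 6 of 9 comparisons all mutants were above all controls, each with an exact permutation p of 0.0286. Against Dapl1 it was −0.57, with all mutants below all controls and the same p, so the array difference of Dapl1 was larger than that of Trp63. Trp63 was the dimmer of the 2 in controls (means 6.54 and 7.20), and RMA shrinks changes of dim genes. Against Trim29 and Fat2 the Trp63 value minus theirs was larger in mutants by 0.23 each. The groups overlapped there, and the exact permutation p was 0.114 and 0.143. All 9 comparisons use the same Trp63 values. Bnc1, Dsg3, Dsc3, Ngfr and Snai2 hardly differed between genotypes, so their comparisons largely restate the rise of Trp63 and are no separate evidence. These 9 p-values are two-sided and not adjusted. They take the embryos as independent, as do the other exact permutation tests here, although litters are nested in genotype, and 2 litters against 2 could not reach such a p.

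Promoter windows from RefSeq (GRCm38.p6), 250 bases before to 50 after a transcription start, were found for 5 of the 10 genes: Dapl1, Fat2, Aqp3, Bnc1 and Ngfr. Those of Dapl1 and Fat2, which rose, and of Bnc1, which did not pass, are printed so that their CG content can be seen side by side. The Dapl1 and Fat2 windows hold 5 and 4 CG dinucleotides. Those of Aqp3, Bnc1 and Ngfr hold 21, 50 and 23, and the median over 32851 windows was 7 (quartiles 3 and 20). Whether the Fat2 window holds a promoter is not known here, because its start lies inside the RefSeq gene boundary. Its sequence counts are therefore not read as those of a promoter. The windows of Dapl1 (chr2:59484403-59484702, plus strand), Fat2 (chr11:55312208-55312507, minus strand, at a start inside the RefSeq gene boundary) and Bnc1 (chr7:81992250-81992549, minus strand) follow, 5′ to 3′, with each CG in capitals.
Dapl1: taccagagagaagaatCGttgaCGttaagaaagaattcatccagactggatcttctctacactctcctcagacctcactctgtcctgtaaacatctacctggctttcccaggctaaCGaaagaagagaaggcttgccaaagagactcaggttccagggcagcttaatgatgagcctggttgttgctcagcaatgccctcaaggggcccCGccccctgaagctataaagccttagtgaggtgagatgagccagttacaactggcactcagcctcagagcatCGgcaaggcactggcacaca
Fat2: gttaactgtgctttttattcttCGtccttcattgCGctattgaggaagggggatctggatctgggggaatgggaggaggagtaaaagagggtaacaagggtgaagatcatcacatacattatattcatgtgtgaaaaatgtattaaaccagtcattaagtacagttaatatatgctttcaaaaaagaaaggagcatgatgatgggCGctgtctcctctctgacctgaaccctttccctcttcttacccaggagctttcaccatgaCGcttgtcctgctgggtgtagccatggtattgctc
Bnc1: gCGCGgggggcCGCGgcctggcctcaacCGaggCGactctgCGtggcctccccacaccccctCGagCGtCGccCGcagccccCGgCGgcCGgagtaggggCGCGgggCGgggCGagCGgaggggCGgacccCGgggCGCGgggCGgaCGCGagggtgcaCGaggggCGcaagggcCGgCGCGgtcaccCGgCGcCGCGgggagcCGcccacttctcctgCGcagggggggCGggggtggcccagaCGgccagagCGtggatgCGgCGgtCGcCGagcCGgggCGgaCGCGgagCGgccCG
The core of a p53 family site was searched as a C and a G with any 2 bases between them, then any 6 bases, then such a C and G again. It reads the same on both strands, and overlapping matches were counted. The Dapl1 window held 3 matches, Fat2 0, Aqp3 3, Bnc1 10 and Ngfr 3, and 70.2% of all windows held at least 1. A stricter form, with CATG at both places, was in 0 of the 5 windows and in 0.712% of all windows. With 5 windows these are descriptions of sequence, with no test.

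The genes next to the members in RefSeq gene order were nearly all without a call. Of 40 neighbours, the nearest 2 measured genes on each side of each member, 1 passed the test, beside 0.852% of all genes in either direction. It was P3h2, a prolyl hydroxylase of collagen, the neighbour of Trp63, singled out after its value was seen. P3h2 had 9.01, 9.15, 9.02 and 9.04 in mutants, against 9.39, 9.53, 9.37 and 9.51 in controls. It was lower in every mutant, with a log2 difference of −0.40 ± 0.07 (SE) and an adjusted p of 0.0191 by limma. This call was lost without control 4, mutant 1 or mutant 4 (adjusted p = 0.104, 0.0544 and 0.0847 by limma) and in 7 of 27 alternatives in all. On the other side of Trp63, Tprg had a log2 difference of 0.25 that did not pass (adjusted p = 0.311 by limma). Neighbours of Dapl1, Trim29 and Fat2 had log2 differences between −0.12 and 0.25, and none passed.

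Other genes of the basal program were counted in 2 lists. Of 8 keratins of basal and stratified epithelium, 3 rose, Krt15 by 2.04, Krt4 by 1.22 and Krt17 by 1.17, and 5 did not pass, among them Krt14 at −0.06, with a list median of 0.05. Krt5 was not analysed here. Of 26 further basal cell genes, 6 rose and 20 did not pass, with a median of 0.13. Those that rose were Anxa8, an annexin (1.65), Tfap2a, an AP-2 transcription factor of surface ectoderm (0.97), Perp, a desmosome protein that p53 and p63 both activate (0.96), Itgb4, the β4 integrin of hemidesmosomes (0.53), Jag2, a Notch ligand (0.42), and Ovol1, a zinc finger factor of epithelial differentiation (0.41). The Jag2 call was lost in 15 of 27 alternatives. That of Ovol1 was lost with littermates averaged, without litter 1 and without litter 4 (adjusted p = 0.107, 0.0586 and 0.0692 by limma), and that of Krt17 without litter 1 (adjusted p = 0.0654 by limma). Among the brightest that did not pass, Bcam, Itga6 and Lama3 had log2 differences of 0.14, 0.09 and −0.10. Without adjustment 10 of the 26 were higher and 1, Lamb3, was lower at −0.29, beside 4.26% of all genes in the lower direction. The share of all genes higher at an unadjusted p under 0.05 was not counted. Unadjusted counts of higher genes, here and below, are therefore descriptions that cannot be set against all genes. Serpinb5 came closest to passing, at 0.37 with all mutants above all controls (adjusted p = 0.051 by limma).

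In adhesion complexes, single members passed the test. Of 15 desmosome genes and plakins, Perp alone rose and 14 did not pass, with a median of 0.04. Without adjustment 4 were higher, Perp included, and 0 lower. The widely used desmosome proteins Dsp, Jup and Dsg2 had 0.17, 0.18 and 0.04, and Dsc2, the neighbour of Dsc3, had 0.23. Of 15 genes of hemidesmosomes and basement membrane, Itgb4 alone rose and 14 did not pass, with a median of 0.09. Without adjustment 4 were higher, Itgb4 included, and 1 lower. The lower one was Lamb3 at −0.29, with all mutants below all controls. Itgb4 had 7.86 in mutants and 7.33 in controls (means, n = 4 each; adjusted p = 0.0132 by limma), and its partner Itga6 had 11.11 in mutants and 11.02 in controls. Without control 4 the adjusted p of Itgb4 was 0.078 by limma.

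Targets of p53, some of which p63 can also bind, were read beside Trp63. In a list of Trp73 and 6 such genes, 4 rose, Cdkn1a by 2.24, Eda2r by 1.40, Ccng1 by 1.00 and Perp by 0.96. Mdm2 and Sesn1 had 0.12 and 0.05 and, like Trp73, did not pass. Paralogues of members were not called in the higher direction. Of 8 aquaporins other than Aqp3, 1 fell, Aqp4, a water channel of lung epithelium, with a log2 difference of −0.61 ± 0.09 (SE; adjusted p = 0.00807 by limma), and 7 did not pass. By limma 0 of the 4 paralogues Fat1, Fat3, Fat4 and Bnc2 passed, and 0 did at an unadjusted p under 0.05. Of 6 regulators akin to Snai2 in family or in epithelial-mesenchymal transition, 0 passed, and 1 was higher and 1 lower without adjustment. Of 5 neurotrophin receptors and ligands, 0 passed with or without adjustment.

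**Figure D4:**
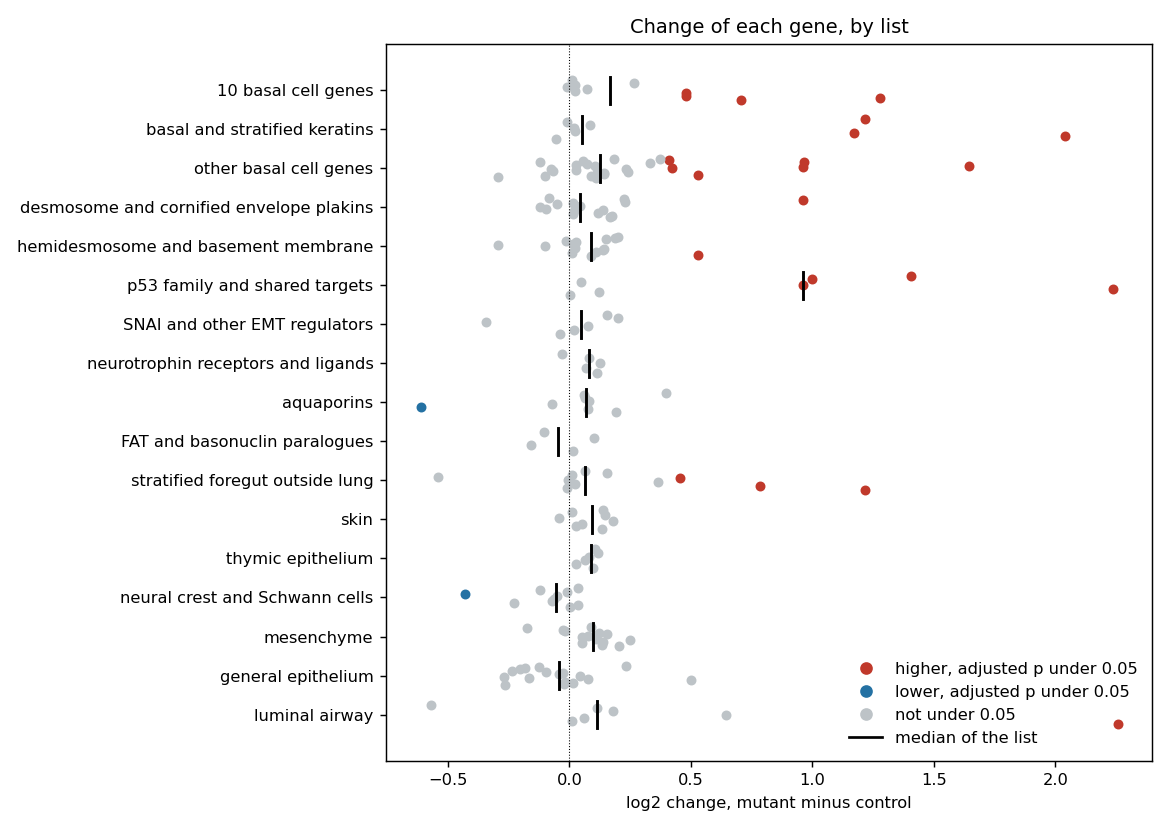
Log2 change, mutant minus control, of every gene of each list (points) and the list median (black bar). Red points rose and blue points fell at an adjusted p under 0.05. Most genes of the basal, desmosome and hemidesmosome lists lie near 0, with a few well to the right. No coloured point lies in the skin, thymus, mesenchyme, general epithelium, SNAI and EMT regulator, neurotrophin, or FAT and basonuclin lists.

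Markers of other cells were read beside these results. Of 11 genes listed for stratified foregut outside the lung, Krt4, Pax9 and Upk1b rose by 1.22, 0.78 and 0.46 and 8 did not pass, Krt13 at −0.01 among them. Without adjustment 5 were higher and 1 lower. The lower one was Gsta4 at −0.54, with all mutants below all controls (adjusted p = 0.0909 by limma). Upk1b averaged 8.71 in controls, above Krt4 at 6.22 and Pax9 at 7.30, and which cells gave its signal was not tested. The Upk1b call was lost in 6 of 27 alternatives, among them litter means and leaving out litter 2 or litter 4. Without control 4 or mutant 4 its adjusted p was 0.0515 and 0.0517, and the highest over all alternatives was 0.0983 (limma). The list's mean log2 level was 7.10 to 7.20 over mutants and 6.88 to 6.94 over controls. By limma 0 of 8 skin genes passed (list mean 6.49 to 6.73 in mutants, 6.38 to 6.66 in controls) and 0 of 6 genes of thymic epithelium (7.14 to 7.33 in mutants, 7.04 to 7.23 in controls), and 0 of either did at an unadjusted p under 0.05. Of 10 genes of neural crest and Schwann cells, Ret fell by 0.43 and 9 did not pass (7.79 to 7.87 in mutants, 7.84 to 8.0 in controls). The Ret call was lost in 5 of 27 alternatives, with an adjusted p of 0.0775 by limma without control 4. Without adjustment 0 of these genes were higher and 2 lower, Ret and Erbb3. Of 14 mesenchyme genes 0 passed, with 1 higher and 1 lower without adjustment (10.88 to 10.90 in mutants, 10.78 to 10.84 in controls). Of 17 general epithelial genes 0 passed, with 1 higher and 5 lower without adjustment and a median of −0.04 (9.29 to 9.37 in mutants, 9.26 to 9.48 in controls). Those 5 were Cldn6, Epcam, Esrp1, Esrp2 and Grhl2, at −0.27 to −0.18, and 4.26% of all genes were lower at that threshold. The 1 higher was Krt19 at 0.50. Of 7 luminal airway genes Cbr2 rose by 2.26 and 6 did not pass (7.42 to 7.71 in mutants, 6.97 to 7.28 in controls). Without adjustment 2 were higher, Cbr2 included, and 1 lower, Aldh1a1 at −0.57 with all mutants below all controls. The scale has no 0 and no detection calls, so no marker could be called absent, and the part of any of these tissues in the basal gene values was not tested.

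Over the 8 embryos, the genes whose values relative to the control mean lay closest to those of Trp63 were Eya2, Sstr4, Hoxa10, Zmat3 and Lypd6b. The root mean square difference was 0.08 to 0.10 log2 units, among 17255 genes compared, and their log2 differences were 0.69, 0.67, 0.58, 0.81 and 0.73. The closest to Dapl1 were Krt4, Dglucy, Adamtsl3, Hoxb9 and Eda2r, at 0.12 to 0.18 log2 units. No other of the 10 basal genes was among either set of 5.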

How the data were processed

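Expression was measured on 1-colour Affymetrix arrays in 8 whole lungs, 1 per embryo. The authors deposited log2 values for each probe set, which come from RMA in oligo per the submitters' processing notes. Its version and options were not given in the sources used here. This step aligns the distributions of all arrays and shrinks changes of dim genes. The number of arrays limits the precision. Of 41345 probe sets, 23521 had 1 gene symbol, 1814 had several and 16010 were not listed in the platform annotation. Those with 1 symbol gave 22180 genes, each represented by its probe set of highest mean.

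Genotypes were tested over all genes in limma 3.58.1 (R 4.3.3), taking litter as random (consensus correlation 0.153), empirical Bayes moderation and Benjamini-Hochberg adjustment, two-sided, at an adjusted p of 0.05. The fit was tested on simulated data. Exact permutation tests over embryos used scipy 1.17.1 and figures matplotlib 3.10.9 in Python 3.11.15. Embryo numbers do not pair the genotypes: deviations of same-numbered embryos correlated at −0.27 to 0.03.

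Named genes are all 10 members, the called genes of each list (up to 6) with the brightest uncalled ones as examples, Ezh2, Xist and the 5 genes closest to Trp63 and to Dapl1, plus examples and neighbours picked afterwards. The closest genes exclude predicted genes, clones, microRNAs, snoRNAs, smell and pheromone receptors, Xist, Tsix and genes of the Y chromosome. The members and lists were chosen with earlier results of these data known. Alternatives covered litters, left-out embryos, dim genes, scaling, probe sets, the variance prior, array weights, Xist and thresholds.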

Additional observations from a re-analysis of the deposited data

Results flagged for a closer look

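Among 22 sets of 4 values (each of 11 genes, Ezh2 included, in each genotype), 1 held an embryo far from the rest. Chance flags about 1 set in 20. Control 3 was the highest control for Dapl1, at a log2 value of 7.43. Without control 3 the log2 difference of Dapl1 was 1.36, against 1.28 with all embryos.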

How the results depend on the processing

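Over 27 alternatives no call among the 10 basal genes turned its direction, and 0 of them passed in the lower direction. The number higher was 4 as reported, 2 to 4 with 1 embryo left out (2 without control 4), 2 with littermates averaged, 2 without litter 1, 5 with Xist as a covariate, 2 at an adjusted p of 0.01, and 1 among genes at or above the median level, a filter that kept only 2 of the 10, Dapl1 and Snai2. Dapl1 passed in all 27 alternatives and Trp63 in all 26 that tested it. Trim29 passed in 21 of 26 and Fat2 in 20 of 26. The replicate block gave 4 higher and 0 lower among the 10, and 140 and 55 among all genes. Among the called members and list genes and P3h2 it ended the call of Jag2. The other genes closest to Trp63 and Dapl1 were not run under the alternatives.

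Over all genes 134 were higher and 55 lower, and with 1 embryo left out 73 to 157 and 28 to 75. They numbered 65 and 33 with litter means, 98 and 90 without litter 1, 75 and 23 without litter 4, 190 and 95 with no litter block, 174 and 89 after quantile normalization, 113 and 73 with arrays shifted to 1 median, 363 and 316 with Xist as a covariate, 195 and 96 at an adjusted p of 0.1, and 71 and 24 at 0.01. The cause of these shifts was not tested. Most of the 10 probe sets are dim, and RMA shrinks changes at such levels.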
